A study of Mus musculus with 2 samples.

Results

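Small nucleolar RNA (snoRNA) host genes were examined in CT26 cells, a mouse colon cancer line, with and without knockdown of Setdb1. The 9 genes are noncoding and were taken by symbol: Gas5, Snhg1, Snhg3, Snhg5, Snhg6, Snhg8, Snhg12, Snhg15 and Zfas1. All 9 were found, each on 1 row, among the 54680 rows of the gene table. The CT26shSetdb1 library (shSetdb1 below) came from cells carrying a lentiviral short hairpin RNA against Setdb1, a histone H3 lysine methyltransferase. The CT26shCtrl library (shCtrl) came from wild-type cells carrying the empty vector of the same kind. Both were grown in RPMI 1640 with 10% serum for 6 days, when the shSetdb1 cells had, per the labels, differentiated. How many hairpins or clones were used is not given in the sources used here. Each group had 1 library, so no difference below has a replicate check, no p-value is given, and the values describe these 2 libraries.

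Most snoRNAs of vertebrates are cut out of introns. In a host gene of this kind the intron carries the stable product, and the spliced transcript has no long conserved reading frame. Many host transcripts begin with a terminal oligopyrimidine (TOP) tract, a C followed by C and T bases, which they share with mRNAs of ribosomal proteins and which ties their translation to growth and amino acid supply. Short reading frames in the spliced RNA are known to engage ribosomes, and for Gas5 this exposes the RNA to nonsense-mediated decay (NMD). The excised snoRNAs guide modification of ribosomal RNA, C/D box snoRNAs 2'-O-methylation and H/ACA box snoRNAs pseudouridylation.

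The annotated first bases of the 9 genes are shown first, because the TOP tract is the sequence feature the family is known for. Each line gives bases from the annotated start on the gene's own strand, on GRCm38, with a starting tract of C and at least 4 further C or T bases in capitals. Where a gene had several annotated starts, one with a tract was chosen, so the lines do not show how typical the tract is. Gas5, Snhg1, Snhg8 and Snhg15 are from RefSeq GRCm38.p6 and the others from GENCODE M21 transcripts. For Snhg5 the start shown is that of 1 of 6 transcripts and for Zfas1 that of 1 of 5, and the RefSeq start of neither gene had a tract.
Gas5, chr1:161035166-161035195, plus strand: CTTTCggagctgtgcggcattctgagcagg
Snhg1, chr19:8723487-8723516, plus strand: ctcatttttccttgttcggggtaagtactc
Snhg3, chr4:132353604-132353633, minus strand: CTCTCTaggcgtcgctctcttggtgtgctt
Snhg5, chr9:88522859-88522888, minus strand: CTTTTacgacggagcctaagatattctttg
Snhg6, chr1:9944089-9944118, minus strand: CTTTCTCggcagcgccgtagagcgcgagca
Snhg8, chr3:123508307-123508336, minus strand: CTCTTTggctgcgatccgcctacgagtatg
Snhg12, chr4:132308676-132308705, plus strand: CCTTTCTCgcttcatccgcggtccctgtct
Snhg15, chr11:6528731-6528760, minus strand: aactttaagcacacgtgagcgtcctcagct
Zfas1, chr2:167063221-167063250, plus strand: CCTTTCgttccggcggctcctagagcgttt

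A start of this form was annotated for 7 of the 9 genes and for neither Snhg1 nor Snhg15. The Snhg1 start, shown without capitals, is also rich in pyrimidines, but an A interrupts the run before it reaches the required length. The tracts ran from 5 bases in Gas5 and Snhg5 to 8 bases in Snhg12. Annotated starts vary within a gene: of the 81 GENCODE transcripts of the 9 genes, 13 (16.0%) began with such a tract, against 2.17% of the 59168 transcripts of all genes at 1 FPKM or more. By gene, at least 1 such transcript was annotated for 7 of the 9 hosts, for 10.3% of all genes at that level, and for 34 of 78 ribosomal protein genes. These shares also depend on how many transcripts a gene has, from 3 for Snhg8 to 25 for Gas5. In RefSeq windows, read on the gene's strand and within 5 bases of the start, 4 of the 9 host windows had such a tract. So did 18.3% of the 32851 windows of all genes. The 4 host windows belonged to 4 of the 8 hosts with a window, of which Gas5 had 2 windows. The annotated position of a start is not a measurement in these cells.

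Depth and labels were checked once for the series. Whole reads could be recovered from 100% of the FPKM values above 0, which gave 18421604 reads in shCtrl and 19045830 in shSetdb1. Setdb1 had 1340 reads in shCtrl and 317 in shSetdb1, a read ratio of 0.229 (0.202 to 0.259). Ratios of reads are given throughout as knockdown over control, each relative to its library's total, with a 95% exact Clopper-Pearson interval that covers counting error only. The reads carry no molecular identifiers, so PCR copies of a molecule are counted separately. Of 8 markers of blood and endothelial cells, 6 were at 0 reads in both libraries and the others were Ptprc and Lyz2, and the FPKM of the 8 summed to 0.933 in shCtrl and 0.864 in shSetdb1. Of markers for a colon epithelial line, Krt18 was at 37.7 FPKM in shCtrl and 90.0 in shSetdb1, its partner keratin Krt8 was at 0.191 and 0.218 FPKM, and Epcam and Cdh1 were listed at 0 in both. Vim, a mesenchymal marker, was at 752 and 835 FPKM.

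All 8 host genes with measurable levels were lower in shSetdb1. The median log2 ratio of (FPKM + 1) was -0.38, the reads of the 9 rows summed to 4991 in shCtrl and 3633 in shSetdb1, and their ratio was 0.704 (0.674 to 0.735). FPKM divides the reads of a gene by the length of its model and by a depth, here 1 divisor shared by both libraries. Ratios of FPKM therefore still carry the 1.03 ratio of the library totals, which the read ratios do not. Of the 9 genes, 8 reached 1 FPKM in at least 1 library, the level required of a gene to be counted here. Gas5 reached it only in shCtrl, at 1.97 FPKM against 0.994 in shSetdb1, so the filter fixed its direction. The same holds for any gene in the lists below that reached 1 FPKM in 1 library only. Zfas1 gave 40.4% of the summed control reads, and without it the summed ratio was 0.694 (0.656 to 0.734). In bulk RNA, fewer cells with a transcript and less of it in each cell cannot be told apart.

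None of the 8 was 2-fold lower or 2-fold higher on the log2(FPKM + 1) scale, which is the size used here for a call. The call has this meaning in every list below. At low FPKM the added 1 shrinks a ratio, so a gene can miss the call while its reads differ by more than 2-fold. Gas5, with a read ratio of 0.487, was such a gene. Over the 10671 genes that reached 1 FPKM in either library, 4.85% were 2-fold lower and 6.81% were 2-fold higher. The 8 lower of 8 stand beside 50.0% of all genes, whose median log2 ratio was -0.00039, with quartiles of -0.36 and 0.38. For 7 of the 8 hosts the counting interval of the read ratio lay below 1, as it did for 40.6% of all genes. Among the 333 noncoding loci at that level, 6.91% were 2-fold lower, 45.6% were lower at all, and the median log2 ratio was 0.0795. The hosts' differences were thus uniform in sign and each smaller than a call. The genes were chosen with earlier results of these data known, and Gas5 passed the filter only through shCtrl. Their shared sign is therefore a description and not a test.

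**Figure D1:**
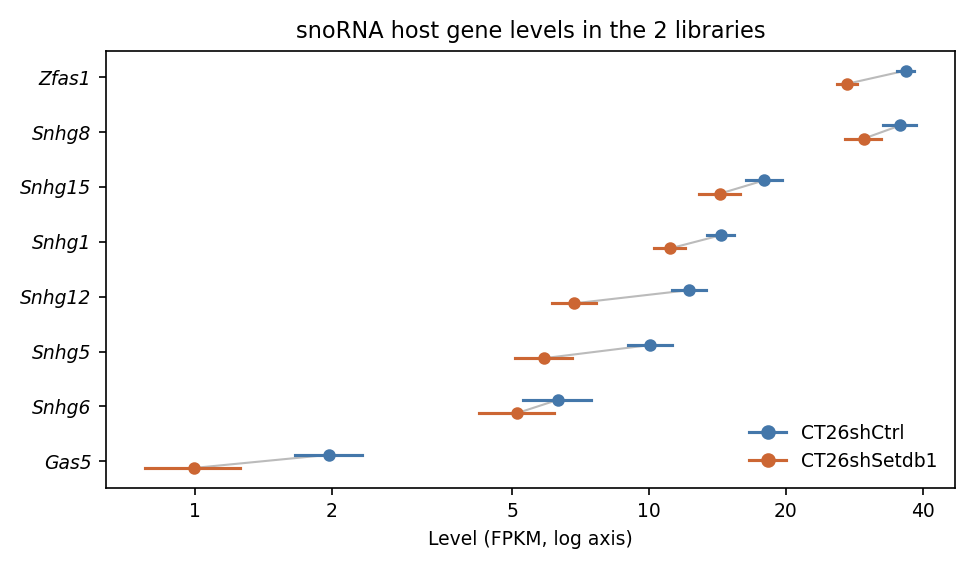
Level of each snoRNA host gene in FPKM on a log axis, with points for the CT26shCtrl and CT26shSetdb1 libraries and bars for 95% exact Poisson counting intervals. All 8 genes shown are lower in shSetdb1, from Zfas1 at 36.7 and 27.3 FPKM to Gas5 at 1.97 and 0.994 FPKM; Snhg3, with 0 reads and 1 read, is not drawn.

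The hosts of C/D box snoRNAs come first. Zfas1 (ENSMUSG00000074578, chromosome 2, 167062934 to 167065862) carries snoRNAs of the Snord12 family and was named for its place beside Znfx1. It had 2015 reads (36.7 FPKM) in shCtrl and 1497 reads (27.3 FPKM) in shSetdb1, a read ratio of 0.719 (0.672 to 0.769). Its interval was the narrowest of the 8, since it had the most reads. Sequence of its transcripts, up to 199 bases long per match, matched transcripts of 48 other genes at 95% identity or more, so some of its reads could belong elsewhere.

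Snhg1 (ENSMUSG00000108414, chromosome 19, 8723475 to 8726443) hosts Snord22 and 7 further snoRNA rows. Its level was 14.4 FPKM (799 reads) in shCtrl and 11.1 FPKM (618 reads) in shSetdb1, and its read ratio was 0.748 (0.672 to 0.832). The interval overlapped that of Zfas1.

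Gas5 (ENSMUSG00000053332, chromosome 1, 161034422 to 161038539), growth arrest specific 5, was first isolated as a transcript that accumulates in arrested cells, and its introns carry Snord47, Snord78 and Snord80 among others. It had 139 reads (1.97 FPKM) in shCtrl and 70 reads (0.994 FPKM) in shSetdb1. Its read ratio of 0.487 was the lowest of the family, but its interval, 0.360 to 0.654, was also wide. The log2 ratio of (FPKM + 1) was -0.58, since at about 1 FPKM the added 1 takes up much of the change. The FPKM of Gas5 is also set by its gene model: 20 of its 25 annotated transcripts are of the retained intron type, and the 3760 bases of the model stand against a median of 502 bases for its other transcripts.

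Snhg5 (ENSMUSG00000097195, chromosome 9, 88521050 to 88522929) is the host of Snord50a and Snord50b. Its 326 control reads (10.1 FPKM) stood against 190 reads (5.86 FPKM) in shSetdb1, a read ratio of 0.564 (0.469 to 0.676). Snhg6 (ENSMUSG00000098234, chromosome 1, 9941959 to 9944118) hosts Snord87. It had 135 reads (6.29 FPKM) in shCtrl and 110 reads (5.12 FPKM) in shSetdb1, a read ratio of 0.788 (0.607 to 1.02). Snhg6 was the 1 host whose interval included 1, so a difference was not detectable at its depth.

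Of the 3 hosts of H/ACA box snoRNAs, Snhg8 and Snhg15 could be measured, and both were lower. Snhg8 (ENSMUSG00000104960, chromosome 3, 123507552 to 123508404), the host of Snora24, had 570 reads (35.7 FPKM) in shCtrl and 474 reads (29.7 FPKM) in shSetdb1. Its read ratio, 0.804 (0.711 to 0.910), was the highest of the 8. Snhg15 (ENSMUSG00000085156, chromosome 11, 6525591 to 6528760), the host of Snora9, had 456 reads (17.9 FPKM) and 365 reads (14.3 FPKM), a read ratio of 0.774 (0.673 to 0.890). Both intervals overlapped those of the C/D hosts Zfas1, Snhg1 and Snhg6. The interval of Snhg8 lay above those of Gas5 and Snhg5, and that of Snhg15 lay above that of Gas5 and overlapped that of Snhg5.

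Snhg12 (ENSMUSG00000086290, chromosome 4, 132308623 to 132311024) carries both kinds, with Snora16a, Snora44 and Snora61 of the H/ACA class and Snord99 of the C/D class. It had 551 reads (12.2 FPKM) in shCtrl and 308 reads (6.85 FPKM) in shSetdb1. Its read ratio was 0.541 (0.469 to 0.623), and its log2 ratio of -0.76 was the lowest of the 8 on the log2(FPKM + 1) scale. At percentile 8.83 of the log2 ratios of all genes it lay furthest down the distribution, and Snhg6, at percentile 31.8, the least far. Both ends depended on the pseudocount. With 0.1 in place of 1, Gas5 (-0.92) lay below Snhg12 (-0.83), and Snhg8 (-0.27) lay above Snhg6 (-0.29).

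By read ratio Gas5, Snhg12 and Snhg5 therefore formed the low end of the family and Snhg8, Snhg6 and Snhg15 the high end. The interval of Snhg6 overlapped all the others, and that of Snhg5 was separate only from that of Snhg8. Of the 28 pairs among the 8 genes, 9 had counting intervals of the read ratio that did not overlap. Zfas1, for example, did not overlap Gas5 or Snhg12. These intervals take no account of differences between cultures. In level per length, the control order ran from Zfas1 and Snhg8, whose intervals overlapped, through Snhg15, Snhg1, Snhg12, Snhg5 and Snhg6 to Gas5, with no overlap between the later neighbours. In shSetdb1 Snhg8 stood above Zfas1, again with overlapping intervals, and Snhg12, Snhg5 and Snhg6 came closer together, each interval overlapping that of its neighbour. Both orders also rest on model lengths, which exceed transcript lengths unequally. The models of Zfas1 and Snhg1 have 2929 and 2969 bases, against medians of 738 and 550 for their transcripts other than retained introns. For Snhg8 these lengths are 853 and 488. The orders may thus differ from those of the spliced RNAs.

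**Figure D2:**
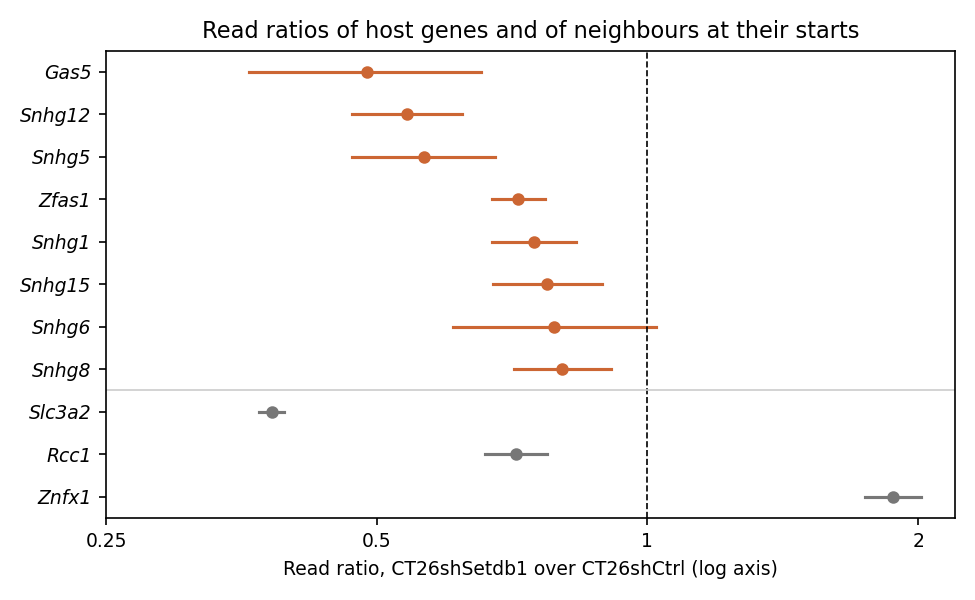
Read ratio, knockdown over control, of the 8 measurable host genes (above the line) and of 3 protein-coding genes that begin at or beside a host's start (below it), with 95% exact counting intervals on a log axis. Host ratios lie between 0.487 for Gas5 and 0.804 for Snhg8, while Slc3a2, the neighbour of Snhg1, is at 0.382 and Znfx1, the neighbour of Zfas1, at 1.88. Rcc1 overlaps Snhg3 on the same strand. Zbtb37, the partner of Gas5, at 0.881 (0.645 to 1.20), is not drawn.

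Snhg3 (ENSMUSG00000085241, chromosome 4, 132348014 to 132353686), which carries the H/ACA snoRNAs Snora73a and Snora73b, had 0 reads in shCtrl and 1 in shSetdb1, so no ratio is given. Its row shares much of its sequence with others in GENCODE M21. Of its 986 exonic bases, 294 (29.8%) are also exonic in a row on the same strand and 851 (86.3%) in a row on either strand. Those rows are Snora73a, with 0 reads in both libraries, the antisense noncoding gene Gm17300, with 12 and 15 reads, and Rcc1. Rcc1, a chromatin-bound exchange factor for the GTPase Ran, begins within the first annotated exon of Snhg3 and had 1464 reads in shCtrl and 1081 in shSetdb1. With the rows of Rcc1 and Snhg3 added together, the read ratio was 0.715 (0.660 to 0.774). How the counting program assigned reads that fall on several rows, and whether it used strand, is not given in the sources used here. The row of Snhg3 therefore gives no measure of the gene's level.

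The snoRNAs themselves were almost absent from the table. Inside the 9 hosts and on their strand lie 33 rows of type snoRNA, between 60 and 205 bases long, and 32 of them were listed at 0 reads in both libraries. The other row, Snord87 inside Snhg6, had 1 read in shCtrl and 0 in shSetdb1. Over the whole table the 1507 snoRNA rows held 359 reads in shCtrl and 314 in shSetdb1. Neither how far the library kit recovers RNA of this length nor how the counting program treated overlapping rows is given in the sources used here. A count of 0 therefore gives no level of a snoRNA. The same rows also cover part of the host models: 20.9% of the exonic bases of Snhg1, 19.6% of Snhg12, 17.8% of Gas5, 15.2% of Snhg8 and 0% of Snhg6. The only row with a read, Snord87, was thus in the host without such an overlap. The host reads thus describe the long host transcripts and leave the amount of mature snoRNA unmeasured.

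**Figure D3:**
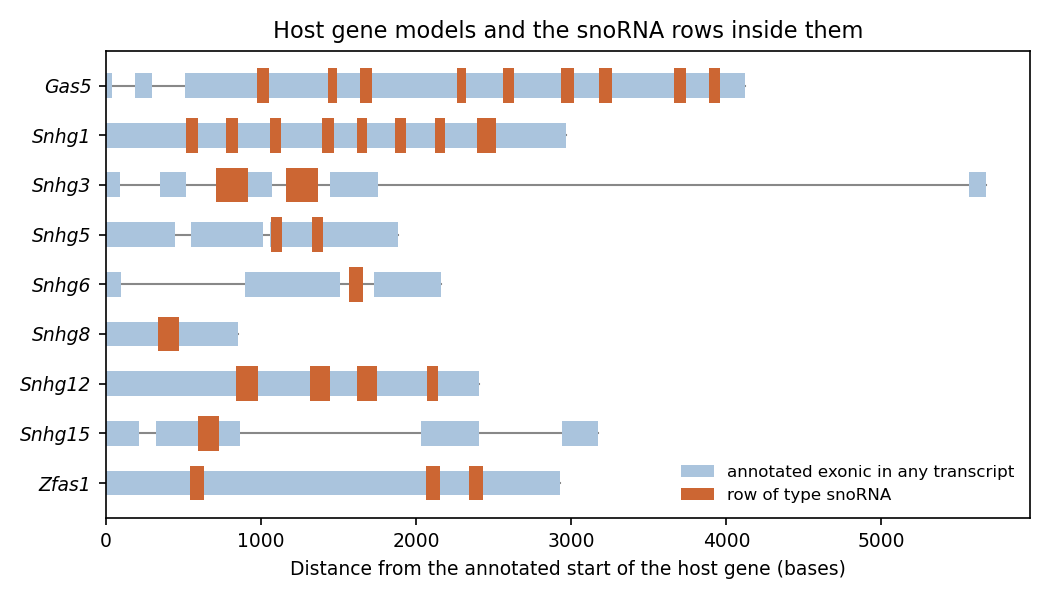
Gene models of the 9 hosts drawn to scale from the annotated start, in bases, with exonic sequence of any GENCODE M21 transcript in light blue, rows of type snoRNA in orange and introns as lines. In Gas5, Snhg1, Snhg8, Snhg12 and Zfas1 the snoRNA rows lie within sequence that is exonic in some transcript, whereas in Snhg6 the row lies in an intron.

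Neighbouring genes were compared next, since several hosts begin beside a protein-coding gene on the other strand. Such a partner, with its start within 2000 bases upstream or overlapping the host at its start, was found for 3 of the 9 hosts. Slc3a2, the heavy chain shared by several amino acid transporters and a known target of the transcription factor ATF4, begins 106 bases from Snhg1. It had 13465 reads in shCtrl and 5318 in shSetdb1, a log2 ratio of -1.33, past the 2-fold call. Its read ratio of 0.382 (0.370 to 0.394) lay well below the interval of Snhg1.

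The stretch from the Slc3a2 start to the first bases of Snhg1 is printed because this pair was unequal across so short a distance. It runs on the plus strand, with the first 30 bases of Snhg1 by RefSeq in capitals.
Slc3a2 to Snhg1, chr19:8723370-8723516: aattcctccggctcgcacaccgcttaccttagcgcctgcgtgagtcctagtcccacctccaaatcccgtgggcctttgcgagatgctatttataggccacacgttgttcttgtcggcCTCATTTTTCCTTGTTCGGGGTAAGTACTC
The motif TGATGNAA, the core of sites bound by ATF4 with C/EBP proteins, was searched on both strands of the 300-base RefSeq windows around gene starts. It occurred in 0 of the 9 windows of the hosts and in 3.97% of the 32851 windows of all genes, which says only that these letters are not in those windows.

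Znfx1, an RNA helicase of antiviral defence, overlaps Zfas1 head to head, and the starts lie 81 bases inside each other. Its 1164 control reads stood against 2258 in shSetdb1, a read ratio of 1.88 (1.75 to 2.02) and a log2 ratio of 0.87, so it was higher while Zfas1 was lower. The exons share 82 bases, and without knowledge of strand reads on those bases cannot be told apart. Zbtb37, which overlaps the outermost annotated start of Gas5, had 90 and 82 reads, a read ratio of 0.881 (0.645 to 1.20) that included 1. Across these pairs the partners lay below, above and near the level of no change, while the 3 hosts were all lower, Gas5 by the filter.

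Other noncoding snoRNA hosts did not share 1 direction. Of the 12 listed, 10 were found and 7 reached 1 FPKM, of which 3 were lower, 3 higher and 1 had equal reads. None was past 2-fold on the log2(FPKM + 1) scale, and the median log2 ratio was 0. Dancr, whose RNA is known to restrain differentiation of epidermal cells, was the lowest, with 76 reads in shCtrl and 22 in shSetdb1, a read ratio of 0.280 (0.166 to 0.455). Dancr reached 1 FPKM only in shCtrl, as did Snhg4, named after its values were seen, so the filter fixed their direction. Snhg18 was the highest, with 377 and 573 reads, a read ratio of 1.47 (1.29 to 1.68). Snhg17 and Snhg20, named after their values were seen, had read ratios of 0.656 (0.600 to 0.717) and 1.29 (1.07 to 1.56). The uniform sign of the 8 genes above is thus not a property of every noncoding host in these libraries.

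Protein-coding genes also carry snoRNAs in their introns, and most were lower. Of 33 found, all at 1 FPKM or more, 31 were lower and 2 higher, the median log2 ratio was -0.45, and 4 were 2-fold lower. Those 4 were Wdr43, Dkc1, Ncl and Nop56, of which Ncl and Nop56 were named after their values were seen. Nop58, also named after its value was seen, missed the call at a log2 ratio of -0.996, with a read ratio of 0.362 (0.315 to 0.414). Wdr43, a ribosome biogenesis factor, fell from 810 to 283 reads, a log2 ratio of -1.33. The 2 higher genes were Eif4a2, a translation initiation helicase also named after its value was seen, and the chaperone Hspa8, which had the highest log2 ratio at 0.49. The 17 ribosomal protein genes among these hosts had a median of -0.42 and the other 16 a median of -0.49. Many of these coding genes have processed pseudogenes, and how reads matching several loci were handled is not given in the sources used here.

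Ribosomal protein genes as a whole, the best known TOP mRNAs, had a median log2 ratio of -0.32, with 72 of 78 lower and 0 of 78 past 2-fold. Rpl13a, itself a host of C/D box snoRNAs, was lowest at -0.85. Of 17 other genes with TOP mRNAs, 15 were lower and 2 higher, with a median of -0.30 and none past 2-fold. They ran from -0.95 for Npm1, a nucleolar chaperone, to 0.47 for Eif4b, a translation initiation factor. Eef1b2, Eef2, Rack1 and Tpt1, named here for the overlap, are also among the coding hosts above, so the counts are not separate observations. The medians of these lists, -0.32 and -0.30, lay near the -0.38 of the noncoding hosts, and no test of the difference was possible with 1 library a group.

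Genes for the proteins that make snoRNAs into particles were lower by more. Of 19 snoRNP proteins and assembly factors, 16 were lower, 6 of them past the 2-fold call, and the median log2 ratio was -0.73. Dkc1, the pseudouridine synthase of H/ACA particles and a snoRNA host itself, was lowest, with 409 reads in shCtrl and 119 in shSetdb1, a log2 ratio of -1.31. Znhit3, an assembly factor of C/D particles, was highest at 0.35. The list of coding hosts and this list share Dkc1, Nop56 and Nop58, so they are not separate observations.

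Genes of NMD, the pathway known to degrade Gas5 RNA, were mixed. Of 20 factors 14 were lower and 6 higher, none past 2-fold, and the median was -0.0631. Upf3a, an adaptor to the exon junction complex, was lowest at -0.70, and Dhx34, a helicase that acts with Upf1, was highest at 0.81. The amino acid response genes of ATF4 differed most of these lists, with 15 of 18 past the 2-fold call, 17 of 18 lower and a median of -1.52. Slc7a11, named after its value was seen, missed the call at a log2 ratio of -0.90, with a read ratio of 0.0883 (0.0561 to 0.133). It reached 1 FPKM only in shCtrl, so the filter fixed its direction. Trib3, a pseudokinase that feeds back on ATF4, fell from 14423 to 1656 reads (log2 ratio -3.09), and Vldlr, a lipoprotein receptor, was highest at 0.0758. The part of these pathways in the host gene values was not tested.

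**Figure D4:**
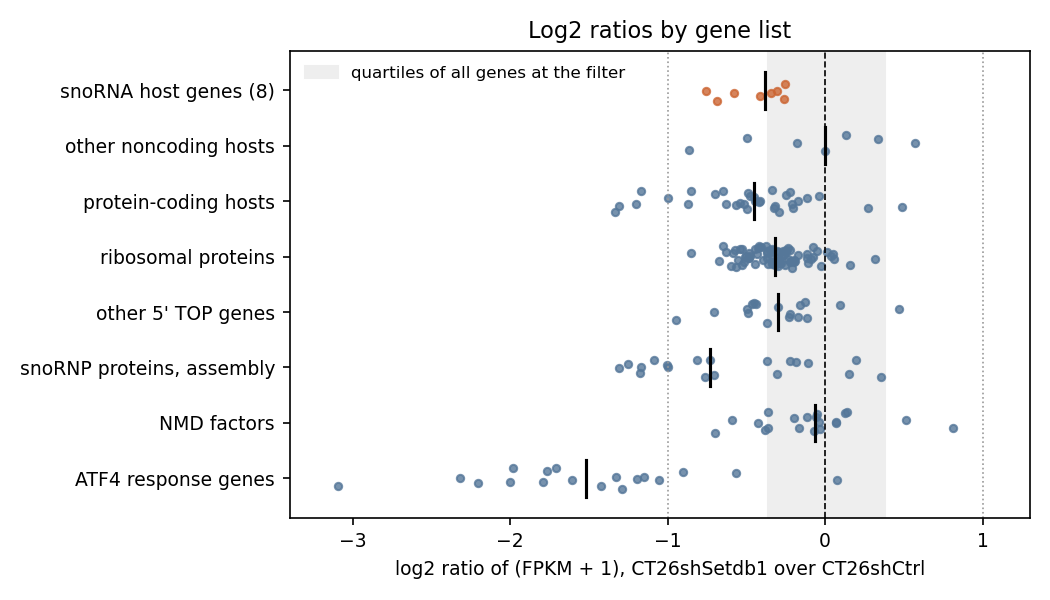
Log2 ratio of (FPKM + 1), knockdown over control, for each gene at 1 FPKM or more in 8 lists; points are genes, black bars are medians, the grey band spans the quartiles of all genes (-0.36 to 0.38), and dotted lines mark 2-fold. The 8 host genes lie between -0.76 and -0.25, the ribosomal protein genes centre at -0.32, and the ATF4 response genes centre at -1.52.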

How the data were processed

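Values are in FPKM as the authors deposited them, in 1 table of 54680 rows that also gives gene model lengths. CASAVA, HISAT2, featureCounts 1.5.0-p3 and GRCm38 are named in the submitters' processing notes, without roles. Libraries were made from total RNA with a NEBNext Ultra kit, per the labels' protocols. FPKM times model length gave whole reads (tolerance 0.01) for 100% of values above 0 in both columns, which shared a divisor of 18731117 reads, so FPKM ratios still carry the 1.03 ratio of the totals. Columns were matched to samples by library name. All 9 hosts had the start, end and exon length of GENCODE M21. Log2 ratios used a pseudocount of 1, a filter of 1 FPKM in at least 1 library and a 2-fold call. Where a symbol had several rows, the one with most reads was used. Named genes were the 9 hosts, Setdb1, neighbours at host starts and the highest and lowest gene of each list, and others are marked. One gene under this rule is not reported here. The host genes and lists were chosen with earlier results of these data known. RefSeq windows were matched by symbol for 8 of the 9 hosts. Copies were searched with BLAST+ 2.17.0 (95% identity over 100 bases). Alternatives covered the pseudocount, 4 scalings, filters and thresholds. Calculations were tested on simulated data. Software was scipy 1.17.1, pandas 2.3.3, matplotlib 3.10.9 and numpy 2.4.6 under Python 3.11.15.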

Additional observations from a re-analysis of the deposited data

How the results depend on the processing

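The log2 ratios of the 8 measurable hosts were below 0 in 40 of 40 values under other pseudocounts and scalings, all within their counting error, and their median ran from -0.46 (upper quartile scaling) to -0.34 (no filter, and a filter at 5 FPKM). Among scalings, the upper quartile moved the median of all genes most, by -0.0750. A pseudocount cannot change a sign, and these shifts were smaller than the host ratio nearest 0, -0.25 for Snhg6. The 40 of 40 values are therefore no check of direction. At a 1.5-fold threshold 2 of the 8 hosts, Snhg12 and Snhg5, were lower, beside 1523 of all 10671 genes. Gas5 missed that threshold at a log2 ratio of -0.577, with a read ratio of 0.487. Over all genes, 870 were 2-fold lower and 1134 higher with a pseudocount of 0.1, 1523 and 1804 passed 1.5-fold, 56 and 116 passed 4-fold, and noncoding loci gave 23 and 34. Setdb1 was at -2.04 with a pseudocount of 0.1. Under the upper quartile, the sum without the 100 highest genes and own read totals, the median of coding hosts was -0.54, -0.49 and -0.50, and that of ribosomal protein genes -0.40, -0.36 and -0.36. Coding hosts without ribosomal protein genes, added after seeing the data, were at -0.49. Other TOP genes were at -0.38 (upper quartile) and -0.34 (own totals). ATF4 genes were at -1.75 with a pseudocount of 0.1, -1.60 under the upper quartile, -1.38 without a filter and -1.66 at 5 FPKM. The cause was not tested. The other 120 of 143 alternative values stayed within counting error or 1.5 times the count. The median of other noncoding hosts, 0, ran from -0.0581 to 0.24 and so has no fixed sign. No paired analysis was possible because neither group has a second library, and no replicate could be left out. Depth limits Gas5 and Snhg6 most, with 70 and 110 reads in the knockdown library.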

Other observations

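Rows of type snoRNA held few reads over the whole table as well. Of the 1507 such rows 99 had a read in either library, and 54 reached 1 FPKM, which for rows this short takes only a few reads. The row with most reads, Gm23823, named after its values were seen, is 124 bases long on chromosome 14 and had 69 reads in shCtrl and 66 in shSetdb1.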
